A study of Mus musculus with 8 samples.

Results

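Cylc1 and Actrt3 encode proteins of the perinuclear theca, the cytoskeletal capsule that wraps the nucleus of the sperm head. Cylc1 encodes cylicin 1, a basic structural protein of the theca behind the acrosome, and Actrt3 encodes actin-related protein T3, a relative of actin found in the testis. The theca holds the acrosome to the nuclear envelope in front and forms the calyx behind it. It is assembled in spermatids, after meiosis. The 2 genes were chosen by their input counts, as genes with some of the highest ratios of knockout over wild type in these same libraries, so their genotype ratios are given as a description. They are 2 of the 53465 genes in the count table and of the 8733 genes that the peak lists name.

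The study profiled N6-methyladenosine (m6A), a methyl group carried by adenosines of RNA, with MeRIP-seq, which sequences the RNA that an m6A antibody binds, next to the unselected input. The testes were those of C57BL/6 mice aged 12 weeks, either wild type (WT) or Alkbh5-/- (KO). Alkbh5 encodes an enzyme that removes the mark. The labels call the cells spermatogenic and name them PA and RO, and the series title speaks of pachytene spermatocytes, cells in the prophase of meiosis, and round spermatids, its early haploid products. There were 4 input and 4 immunoprecipitated samples, 1 of each for WT PA, KO PA, WT RO and KO RO. How the cells were separated and how many mice were used are not given in the sources used here. With 1 sample per group there was no replicate check, no test was made, and every value below describes these libraries. In such bulk samples fewer cells of a type and less RNA per cell cannot be told apart.

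Total counts lay between 9921365 and 13147239 per input library. Levels in CPM, counts scaled to the library total, were further scaled for differences in composition (TMM), and log2 ratios were taken after a prior count of 2 was added. A gene was counted in a comparison where its CPM reached 1 in one of the libraries compared, and the 95% intervals cover counting error only. Markers of both stages were present in all 4 libraries. The summed CPM of 9 of 14 round spermatid markers with a symbol was 409 (PA) and 772 (RO) in WT and 750 and 1220 in KO, and that of 3 of 12 pachytene markers was 2240 and 1960 in WT and 1250 and 1420 in KO. Most of the pachytene sum came from Sycp2, with log2 ratios of KO over WT of −1.11 in PA and −0.71 in RO. Those of Sycp1 were −0.09 and 0.25, and those of Mlh3 −0.33 and −0.45. The genes compared here have a symbol only because they carry a peak in at least 1 list.

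The 250 bases that precede each gene's start in the RefSeq annotation (GRCm38.p6) are shown because both genes were higher in the KO libraries. Capitals mark a match to 1 of 5 motifs searched on both strands. The Cylc1 stretch is chrX:111110168-111110417 on the + strand, and the Actrt3 stretch is chr3:30599871-30600120 on the − strand.
Cylc1: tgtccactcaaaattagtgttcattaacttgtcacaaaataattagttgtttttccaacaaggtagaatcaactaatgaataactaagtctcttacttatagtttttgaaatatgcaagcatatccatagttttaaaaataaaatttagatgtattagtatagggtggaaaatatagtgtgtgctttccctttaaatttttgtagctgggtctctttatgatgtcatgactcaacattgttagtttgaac
Actrt3: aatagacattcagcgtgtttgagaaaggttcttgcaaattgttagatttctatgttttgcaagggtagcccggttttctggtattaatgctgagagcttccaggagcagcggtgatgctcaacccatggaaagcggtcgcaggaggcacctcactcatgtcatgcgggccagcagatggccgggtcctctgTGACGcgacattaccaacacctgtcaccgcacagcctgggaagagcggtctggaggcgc

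The upstream stretch of Cylc1 had a GC content of 28.8% and no CG dinucleotide, and 98.8% of the 32851 RefSeq upstream stretches of that length had a higher GC content. That of Actrt3 had a GC content of 53.6%, near the median of 52.4%, and 12 CG dinucleotides. The motifs were the cyclic-AMP response element TGACGTCA, which binds the spermatid factor CREM, its shorter form TGACG, the TATA box TATAAA, the CCAAT box CCAAT and the MYB site AACNGTT. The longest of these contains the shorter form. Only Actrt3 held a match to any of them, 1 TGACG on the forward strand from 59 to 55 bases before the start. TGACG occurs in 17.8% of all upstream stretches, TGACGTCA in 1.55%, TATAAA in 12.4%, CCAAT in 33.8% and AACNGTT in 3.80%. These matches describe letters in the window only.

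Cylc1 (ENSMUSG00000073001) lies on chromosome X from 111110418 to 111125854 on the + strand, and no other gene of the RefSeq table overlaps it. In WT the input counts were 20 for PA and 46 for RO, and in KO they were 378 and 743. Both KO libraries were far above both WT libraries, and within each genotype the RO library was above the PA library. Scaled levels in WT were 1.70 CPM in PA (1.04 to 2.63) and 4.00 CPM in RO (2.93 to 5.33). Those in KO were 34.9 CPM (31.5 to 38.7) and 67.8 CPM (63.0 to 72.9). In rising order the levels run WT PA, WT RO, KO PA, KO RO, and no neighbouring intervals overlap.

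Actrt3 (ENSMUSG00000037737) lies on chromosome 3 from 30597073 to 30599870 on the − strand, also with no overlapping gene in that table. In WT the input counts were 2 for PA and 60 for RO, and in KO they were 128 and 125. The WT PA library stood apart at the low end, and the KO libraries were alike. Scaled levels in WT were 0.170 CPM in PA (0.0206 to 0.616) and 5.21 CPM in RO (3.98 to 6.71). Those in KO were 11.8 CPM (9.87 to 14.1) and 11.4 CPM (9.50 to 13.6). The intervals of KO PA and KO RO overlap almost wholly, so that their order is not settled, whereas both lie above that of WT RO.

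**Figure D1:**
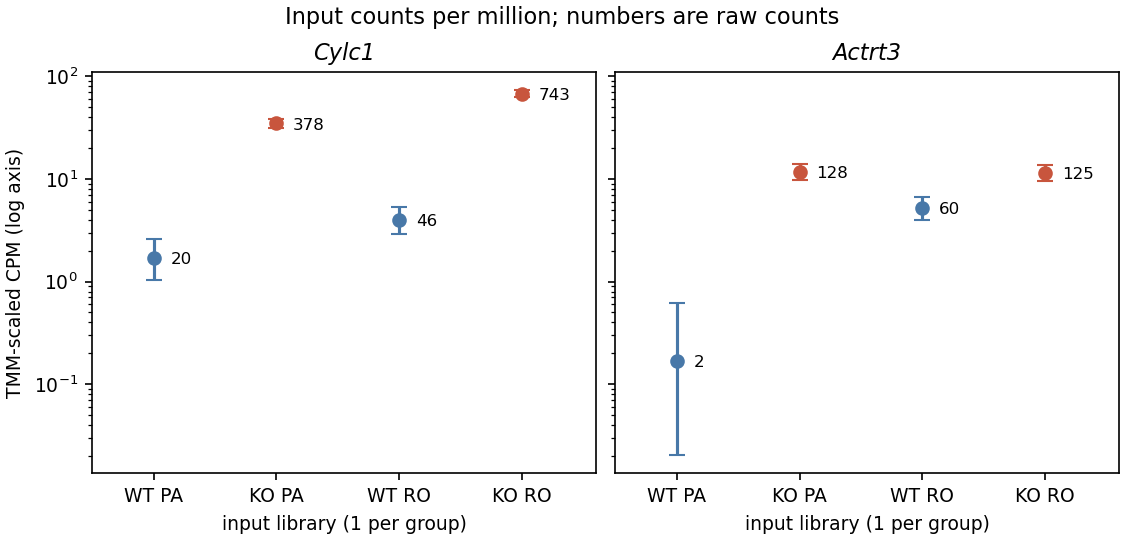
TMM-scaled CPM of Cylc1 and Actrt3 on a log axis in the 4 input libraries, with exact Poisson 95% intervals for counting error and raw counts beside the points. For both genes the KO libraries (red) lie above the WT libraries (blue), and the lowest point is Actrt3 in WT PA with 2 counts.

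Between genotypes, Cylc1 was 20.5-fold higher in KO PA than in WT PA (13.1 to 33.9) and 17.0-fold higher in KO RO than in WT RO (12.6 to 23.4). The log2 ratios with the prior count were 4.22 and 4.03, a difference of 0.19 between the cell fractions. Actrt3 was 69.4-fold higher in KO PA than in WT PA, with an interval of 18.8 to 579 that reflects the 2 counts of WT PA. In RO it was 2.19-fold higher in KO (1.60 to 3.03). The log2 ratios of Actrt3 were 5.11 in PA and 1.10 in RO, a difference of 4.00.

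Both genes were thus at least 2-fold higher in KO in PA, as were 23.8% of the 24331 genes counted there (19.9% were at least 2-fold lower). Both were also at least 2-fold higher in KO in RO, as were 23.0% of 24763 genes (19.0% lower). These ratios entered the choice of the genes, so nothing is read from the counts. Among named genes that reached 10 CPM on the higher side and had counts everywhere, Actrt3 ranked second of 6714 from the highest ratio in PA, and Cylc1 ranked 7. In RO Cylc1 ranked second of 6695 and Actrt3 ranked 547.

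The lower KO library of Cylc1 was 8.75-fold above its higher WT library (378 against 46 counts). For Actrt3 that gap was 2.19-fold (125 against 60 counts). An exchange of the names of the KO PA and KO RO libraries would therefore leave both genes higher in KO. A gap of 2-fold or more between the lower KO and the higher WT library was found for 6.42% of the 27369 genes that reached 1 CPM in any library.

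Counting error is a small part of the spread at these counts, so each ratio was set beside those of all genes whose summed count in the same pair of libraries lay within 1.5 times that of the gene. For Cylc1 in PA, with a summed count of 398, the 3711 like genes had a robust SD of 0.95 on the log2 scale against 0.14 from counting error. The middle 90% of their log2 ratios ran from −1.51 to 1.71. Of these like genes 3, or 0.0808%, had a log2 ratio of at least the 4.22 of Cylc1. In RO, with a summed count of 789, the robust SD was 0.72, the middle 90% ran from −1.36 to 1.19, and 0 of 3353 like genes reached the 4.03 of Cylc1. Cylc1 and Actrt3 were chosen for high genotype ratios in these libraries. A place in the upper tail of like genes follows from that choice and is a description only.

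For Actrt3 in PA, with a summed count of 130, the robust SD of 3750 like genes was 1.34 against 0.25 from counting error, and their middle 90% ran from −2.20 to 2.64. A log2 ratio of at least 5.11 was reached by 14 of them (0.373%). In RO, with a summed count of 185, the robust SD was 1.06, and 703 of 3857 like genes (18.2%) reached the 1.10 of Actrt3. The Actrt3 ratio in RO thus lay within the spread of genes of its count, at 0.944 robust SDs from their median, although its counting interval excluded a ratio of 1.

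**Figure D2:**
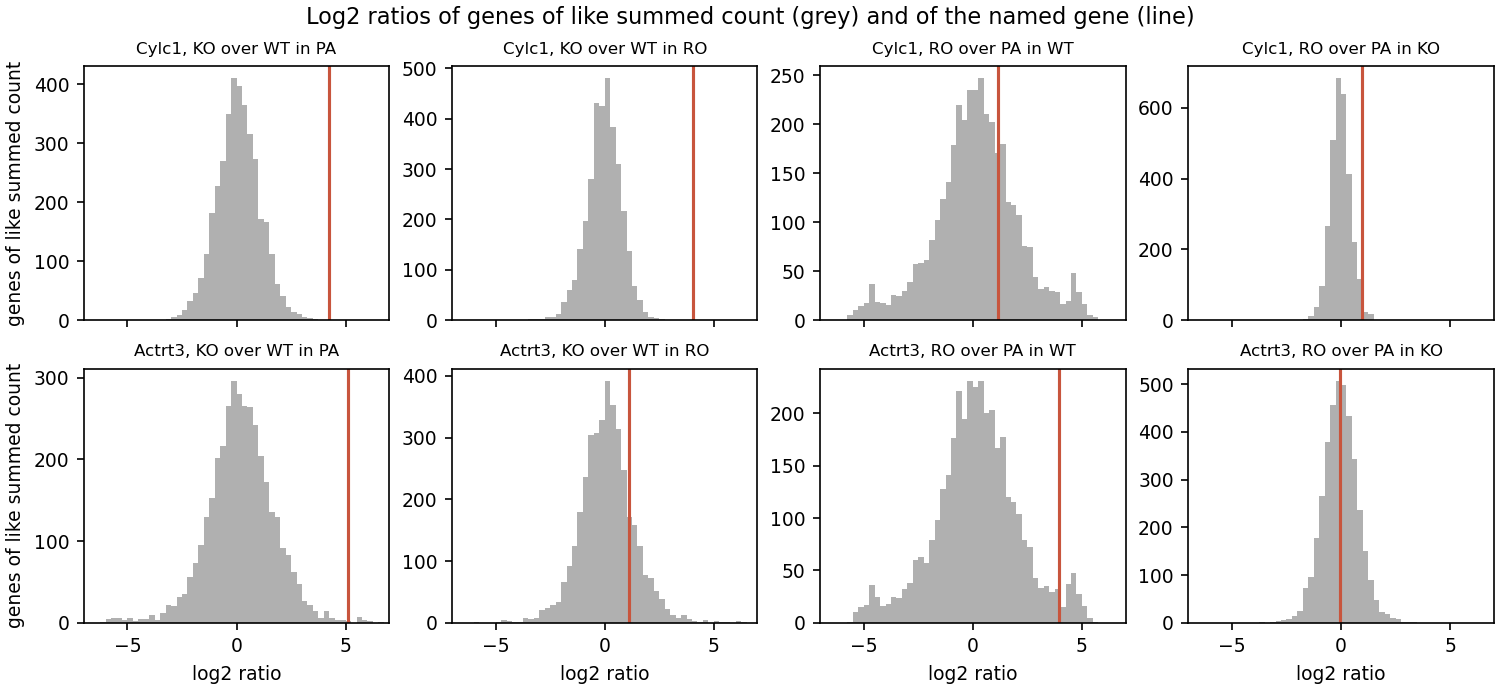
Histograms of log2 ratios (x axis; number of genes on the y axis) of genes whose summed count lay within 1.5 times that of Cylc1 (top) or Actrt3 (bottom), for the 4 comparisons, with the gene itself as a red line. The Cylc1 line lies at 4.22 and 4.03 in the genotype panels, beyond nearly all like genes, whereas the Actrt3 line lies in the tail at 5.11 in PA and inside the distribution at 1.10 in RO. Both genes were chosen for high genotype ratios, so these tail places are a description only.

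Between stages the 2 genes differed from each other. Cylc1 was 2.34-fold higher in RO than in PA in WT (1.36 to 4.18) and 1.94-fold higher in KO (1.71 to 2.20), with log2 ratios of 1.15 and 0.95. Actrt3 was 30.6-fold higher in RO in WT (60 against 2 counts; 8.10 to 258, log2 ratio 3.95), but in KO its ratio was 0.964 (0.748 to 1.24, log2 ratio −0.05). At least 2-fold higher in RO were both genes in WT, beside 21.6% of 23979 genes (18.7% lower), and neither in KO, beside 17.5% of 24806 genes (15.2% lower). The stage and genotype ratios share libraries, and the 2 counts of Actrt3 in WT PA enter both of its large ratios.

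The spread of like genes was wider in WT, where summed counts were lower, at 66 for Cylc1 and 62 for Actrt3. Actrt3 had a summed count of 253 in KO. For Cylc1 in WT the robust SD was 1.65 and 1049 of 3774 like genes (27.8%) had at least its ratio. In KO, where its summed count was 1121, the robust SD was 0.44 and 53 of 3042 like genes (1.74%) had at least its ratio. Its stage difference in KO therefore stood further out among like genes than the one in WT, although the ratios were similar. For Actrt3 in WT 158 of 3721 like genes (4.25%) had at least its ratio, and in KO 1973 of 3876 (50.9%).

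The authors' deposited tables held 3 m6A peaks in Cylc1, all in coding sequence, in 1 block each and on the strand of the gene. No peak of Cylc1 was in the WT PA or the WT RO list. Its KO PA peak in the authors' deposited table ran from 111122627 to 111123341 (mm10, 715 bp) with a fold enrichment over input of 18.9 and a false discovery rate of 5.0e-30. Of the peaks that the authors' deposited table gives for KO RO, 1 ran from 111122567 to 111123043 (477 bp, fold 7.57, false discovery rate 1.3e-16) and another from 111123103 to 111123520 (418 bp, fold 16, false discovery rate 2.6e-08). The single KO PA peak overlapped both, by 417 and 239 bp. All 3 lay within a stretch of 954 bp, 6.18% of the gene's span, that begins 12149 bp after the gene's first base.

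Actrt3 had 3 peaks in the authors' deposited tables as well, all in coding sequence, 1 in each list except that of WT PA. The KO PA peak ran from 30598112 to 30598528 (417 bp, fold 25.2, false discovery rate 7.9e-17), the authors' deposited table for KO RO gave 30598172 to 30598439 (268 bp, fold 21, false discovery rate 3.2e-23), and the authors' deposited table for WT RO gave 30598261 to 30598409 (149 bp, fold 6.73, false discovery rate 1.2e-03). The WT RO peak lay wholly inside the KO RO peak, and the KO RO peak wholly inside the KO PA peak. The 149 bp common to them begin 1461 bp after the gene's first base, near the middle of its span of 2798 bp.

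**Figure D3:**
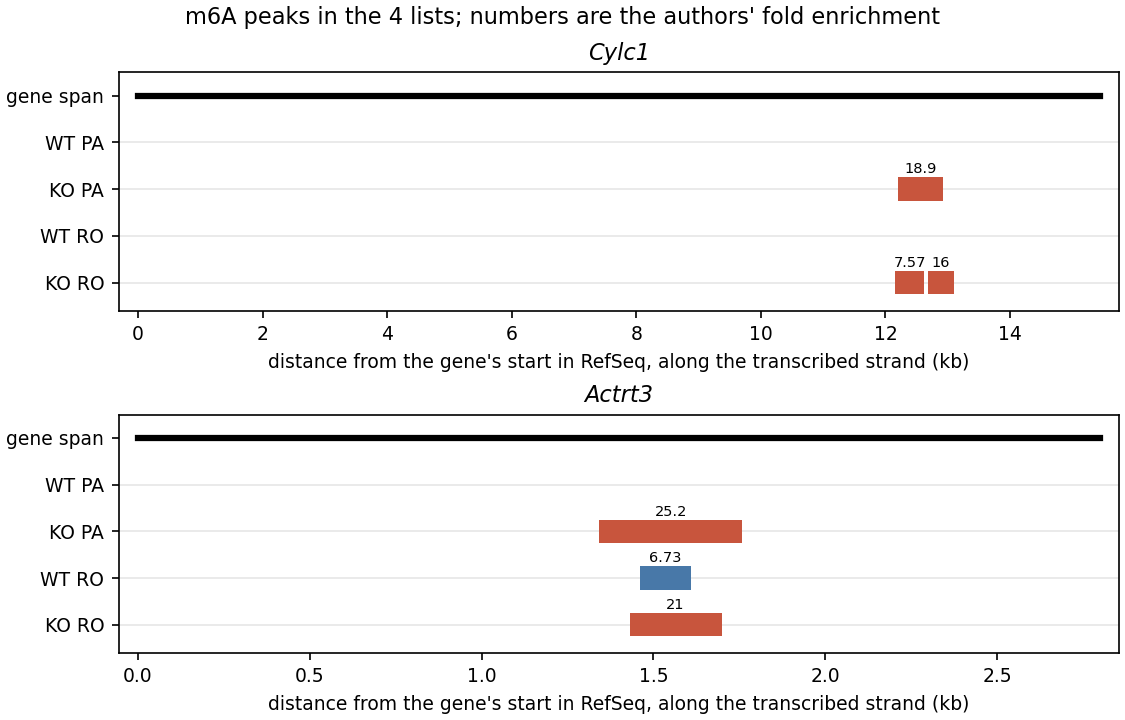
Positions of the m6A peaks of Cylc1 (top) and Actrt3 (bottom) in the 4 lists, as distance in kb from the gene's RefSeq start along the transcribed strand; boxes are peaks (red KO, blue WT), numbers are the authors' fold enrichment and the black bar is the gene span including introns. Cylc1 peaks appear in the KO lists alone, and the Actrt3 peaks of 3 lists are nested at 1.3 to 1.8 kb.

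The folds of the Cylc1 peaks were not extreme in their lists. A higher fold was given for 34.2% of the 9931 KO PA peaks, and for 69.4% and 38.4% of the 8846 KO RO peaks. The KO PA peak of Cylc1 was long for its list, where 6.58% of peaks were longer. For Actrt3 a higher fold was given for 24.3% of peaks in KO PA, 28.5% in KO RO and 82.7% of the 9418 peaks in WT RO. Folds from different lists rest on different pairs of libraries and were not compared.

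The presence of a peak was set beside its share among like genes. These were all genes, with or without a symbol, whose input count in the same library lay within 1.5 times that of the gene. At the 20 counts of Cylc1 in WT PA, 126 of 3573 like genes had a peak (3.53%, Wilson 2.97 to 4.18), and at its 46 counts in WT RO 392 of 3749 did (10.5%). At its 378 counts in KO PA the share was 42.8%, and at its 743 counts in KO RO 45.1%, with 17.9% of genes holding at least 2 peaks. The share was thus lower in the WT lists, which hold no Cylc1 peak, than in the KO lists. Whether its count accounts for the absence of a peak in WT was not tested.

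For Actrt3 the share was 1.46% at 2 counts in WT PA, 22.8% at 128 counts in KO PA, 13.0% at 60 counts in WT RO and 21.3% at 125 counts in KO RO. The pattern of Cylc1, a peak in both KO lists and in no WT list, was shared by 600 of the 8733 genes with a peak (6.87%). The pattern of Actrt3, a peak in every list but WT PA, was that of 560 genes (6.41%). Whether the mark per transcript differed between genotypes was not tested.

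Other genes of the theca were followed as a group of 18, of which 12 had a symbol here. The group was chosen with earlier results of these data known, so its counts beside all genes are a description. All 12 had a log2 genotype ratio above 0 in PA, and 7 were at least 2-fold higher in KO and 0 lower. In RO all 12 were above 0, with 5 at least 2-fold higher and 0 lower. The median log2 ratio was 1.33 in PA, where Actrt1 had no count in WT, and 0.78 in RO, beside −0.05 in both for all genes with a symbol, of which 13.0% in PA and 13.3% in RO were at least 2-fold higher. Both KO libraries were above both WT libraries for 9 of the 12, against 22.3% of those 27369 genes. The margin could be small, as for Actrt1, which had 46 counts in KO RO and 42 in WT RO.

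Cylc2, which encodes the other cylicin, had 764 (PA) and 1263 (RO) counts in WT against 1296 and 2069 in KO. Its log2 genotype ratios of 0.88 in PA and 0.78 in RO were far below the 4.22 and 4.03 of Cylc1, while its stage ratios of 0.75 in WT and 0.66 in KO had the same order as those of Cylc1. Actrt2, which encodes a further actin-related protein of the family of Actrt3, had 15 and 63 counts in WT against 301 and 407 in KO, and log2 genotype ratios of 4.27 and 2.72. Actrt1, also of this family and on chromosome X, had 0 and 42 counts in WT against 67 and 46 in KO. With 3 counts put in place of its 0 in WT PA, Actrt1 was 24.2-fold higher in KO PA. That value leaves out the counting error of the 67 counts. Its log2 genotype ratio in RO was 0.19. Like Actrt3, Actrt1 was lowest in WT PA. In KO its log2 ratio of RO over PA was −0.54, against −0.05 for Actrt3.

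Among the other theca genes Actl7b, an actin-like protein of spermatids, had log2 genotype ratios of 1.56 in PA and 0.52 in RO, and Capza3, a capping protein subunit of the testis, 2.02 and 0.78. Cypt4, of a family of cysteine-rich theca proteins, had 2.53 and 1.51. At the low end lay Ccin, which encodes calicin, a basic calyx protein, with 0.34 and 0.11, and the profilin gene Pfn4 with 0.40 and 0.09. Between stages 7 of the 12 were at least 2-fold higher in RO in WT and 2 in KO, with medians of 1.09 and 0.41. Of all genes with a symbol 12.4% and 7.36% were so placed.

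**Figure D4:**
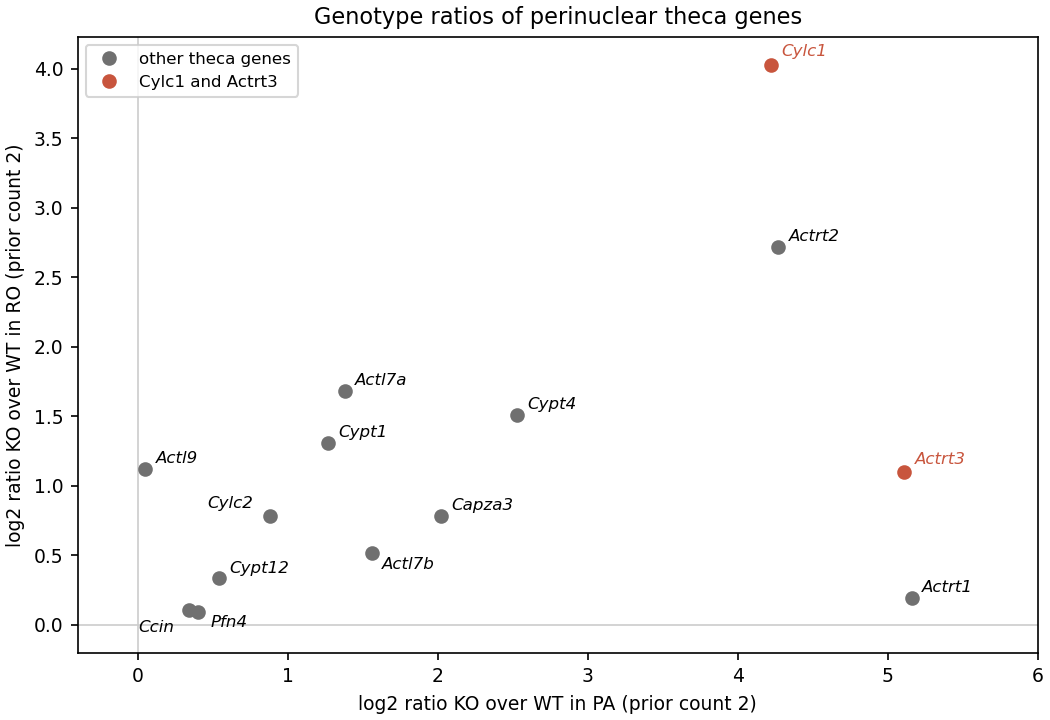
Log2 ratios KO over WT in PA (x axis) and in RO (y axis), with a prior count of 2, of the 12 other theca genes with a symbol (grey) and of Cylc1 and Actrt3 (red). All points lie above 0 on both axes; Cylc1 is highest in RO at 4.03, and Actrt3 lies beside Actrt1 at the right end with 5.11 in PA.

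Spermatid markers differed among themselves between genotypes. Of 9 round spermatid markers 5 were at least 2-fold higher in KO in PA and 4 in RO, with 0 lower in either and medians of 1.23 and −0.06, beside the 13.0% and 13.3% of all genes with a symbol that were at least 2-fold higher. The genes of late spermatids Akap4, Odf1, Tnp2 and Prm2 had log2 ratios of 1.23 to 2.22 in PA and 1.57 to 2.73 in RO. The acrosomal genes Acrv1 and Acr had −0.09 and −0.48 in PA and −0.81 and −0.61 in RO. Crem, a transcription factor gene of spermatids, had 0.26 and −0.06, Catsper1, a sperm ion channel gene, 0.31 and −0.79, and Tex36 2.03 and −0.51. Cylc1 lay above the highest of the 9 markers in both cell fractions, and Actrt3 did so in PA. Both genes were chosen for high ratios in these libraries, so nothing is read from that order. The part of such markers in the ratios of Cylc1 and Actrt3 was not tested.

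Other cell types also differed between the libraries. The summed CPM of 3 of 6 Leydig cell markers with a symbol was 155 (PA) and 47.7 (RO) in WT and 45.3 and 17.3 in KO. In the same order it was 239, 172, 318 and 198 for 4 of 7 Sertoli cell markers, 33.4, 24.0, 63.9 and 47.2 for 4 of 7 spermatogonial markers, and 80.3, 39.7, 116 and 128 for 4 of 6 macrophage and endothelial markers. None of these markers was at 0 in any library, and their part in the ratios was not tested.

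A list of 16 acrosome genes (7 with a symbol) had a median log2 genotype ratio of −0.09 in PA and −0.61 in RO, with 1 gene at least 2-fold higher in each, Spata46 at 1.76 and 2.50, and Spata16 lower in RO at −1.24. Of 18 further actin-related genes (7 with a symbol) 2 were at least 2-fold higher in KO in PA, Actl11 at 1.76 and Actl10 at 1.40, and 0 in RO, with medians of −0.24 and −0.16. Among 243 other genes on chromosome X, where Cylc1 lies, 74 of 229 counted were at least 2-fold higher in KO in PA and 14 lower (median 0.48), and in RO 94 of 233 were higher and 12 lower (median 0.71). Of all genes with a symbol 13.0% were higher and 14.1% lower in PA, and 13.3% and 13.7% in RO.

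Of the 12 theca genes, 3 (PA) and 10 (RO) had an m6A peak in WT, and 7 and 8 in KO, beside 4710, 5800, 6084 and 5581 of the 8733 genes with a peak in any list. The WT RO peaks include 1 each of Actrt1, Actl7a and Capza3 whose false discovery rates in the authors' deposited table are 0.82, 0.20 and 0.078, and the first is the only one of Actrt1 in that list. Coding sequence held 2 of 4 and 12 of 16 of the theca peaks in WT, and 8 of 10 and 7 of 9 in KO, against 56.4%, 49.8%, 55.2% and 53.4% of all peaks of those lists. In the authors' deposited tables Cylc2 had a peak in all 4 lists, and those in coding sequence had folds of 209 (PA) and 176 (RO) in WT and 53.1 and 32.8 in KO. In the authors' deposited tables these peaks began at 51229619 and 51229530 in WT and at 51228111 and 51228319 in KO. They covered stretches of unlike length, and their folds were not compared between lists. Cylc1, with 20 and 46 counts in the WT libraries against 764 and 1263 for Cylc2, was listed in KO alone.

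The genes whose levels over the 4 libraries lay nearest to those of Cylc1 were found by the distance between log2 CPM values centred on each gene's mean, among 7052 other genes with a symbol whose highest library reached 10 CPM. They were Olfr267, an olfactory receptor gene (distance 0.76), Actrt2 (0.93), AC091683.2 (1.03), Myrf (1.04) and Tex13c1 (1.05), the last on chromosome X like Cylc1. For Actrt3 they were Hsfy2, a heat shock factor gene (0.42), Zfp819, a zinc finger gene (0.72), the homeobox gene Dlx6 (0.75), Gm3138 (0.86) and Adam39, of the ADAM protease family (0.91). Actrt3 ranked 61 for Cylc1, and Cylc1 ranked 77 for Actrt3, at a distance of 2.34. The genes named depend on the measure. With Pearson correlation in place of distance, 0 of the 5 nearest genes were shared for Cylc1 and 0 of 5 for Actrt3. Some also had few counts in WT PA, with 3 for Olfr267, 3 for Dlx6 and 4 for Gm3138. Profiles over 4 libraries are short, and such ranks describe these libraries.

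The nearest 3 genes with a peak on either side of Actrt3 had genotype ratios of either sign. Those of Cylc1 were all higher in KO in both cell fractions. They lie on chromosome X, where most genes with a symbol had a genotype ratio of that sign. Among the 229 chromosome X genes counted in PA, 158 had a log2 ratio above 0. The RO comparison counted 233 such genes and placed 181 above 0. Whether the shared sign is particular to the surroundings of Cylc1 was not tested. On either side of Actrt3 the nearest were Mecom, with log2 genotype ratios of 1.06 in PA and 2.06 in RO, and Mynn, whose peaks are centred 9.02 kb away, with −0.09 and 0.49. Farther up lay Lrriq4 with 1.45 and 0.28 and Samd7 with −5.23 and −0.97, whose counts in PA were 158 for WT and 2 for KO, the reverse of Actrt3. On either side of Cylc1 the nearest were Gm4784, a gene of few counts (9 and 1 in WT, 28 and 18 in KO) with 1.55 and 2.78, and Tex16, 996 kb away, with 1.07 and 0.53.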

How the data were processed

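Gene counts of the 4 input libraries and 4 peak lists were analysed for 8 samples, grouped by title. The authors deposited raw whole-number counts per Ensembl gene, trimmed with cutadapt 2.5 and aligned with HISAT2 2.1.0 to mm10, per the submitters' processing notes; the counting tool, strand handling and peak caller are not given in the sources used here. Per the file headers each peak carries a fold (a ratio of immunoprecipitated over input), a p-value, a log10 p-value and a log10 false discovery rate. Each list was assigned by its name. Symbols come from the lists. No table used here pairs the symbol Alkbh5 with an Ensembl gene, so it was not analysed here which leaves the knockout label without that check.

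Counts were scaled with TMM factors (0.892 to 1.09; edgeR 4.0.16 in R 4.3.3), with DESeq2 1.42.0 size factors as an alternative. Ratios carry exact binomial, levels exact Poisson and shares Wilson 95% intervals. Only the scaling and log2 ratio step, for KO over WT in PA, was tested on simulated data. These had counting error only, and the changed genes were expected in WT at higher counts than Cylc1 and Actrt3 had there. The remaining values were computed in Python 3.11.15 (numpy 2.4.6, pandas 2.3.3, scipy 1.17.1) and drawn by matplotlib 3.10.9. Upstream sequences are RefSeq's (GRCm38.p6), the build of mm10.

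The members and gene lists were chosen with earlier results of these data known. Named were both genes, the 5 of nearest pattern each, up to 3 neighbours on either side, and up to 4 genes per list by mean CPM; Actrt1, Cypt4, Capza3, Ccin, Spata46, Actl10, Actl11, Odf1, Tnp2, Acr and Tex36 were named after their values were seen. No sequence of a peak was read.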

Additional observations from a re-analysis of the deposited data

Results flagged for a closer look

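Actrt3 had a log2 ratio of RO over PA of 3.95 in WT and of −0.05 in KO, where its counts of 128 and 125 do not settle a direction. It was listed because the values lie on either side of 0, and with 1 library per group the difference between genotypes was not tested. Values on either side of 0, also untested, were found for 3 other theca genes, Actrt1 (4.43 in WT with 0 counts in WT PA, −0.54 in KO), Capza3 (1.10 and −0.14) and Pfn4 (0.28 and −0.04). The KO values of Capza3 (394 counts in PA and 362 in RO) and Pfn4 (626 and 618) are near 0.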

How the results depend on the processing

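The log2 ratios of Cylc1 and Actrt3 stayed within their counting intervals under all 32 other settings of scaling and prior count, and the peak numbers under all 16. With the KO libraries exchanged, an alternative chosen after seeing the data, the genotype ratio of Cylc1 was 5.18 against WT PA and 3.07 against WT RO. The share of genes at least 2-fold apart, 43.7% and 42.1% for KO over WT in PA and RO and 40.2% and 32.7% for RO over PA in WT and KO, fell to 26.4%, 24.6%, 21.2% and 10.9% at a CPM of at least 10, and to 21.9%, 20.9%, 20.3% and 16.8% at a fold of 4. At that fold 4 of 12 theca genes were higher for KO over WT in PA, 1 in RO, and 1 and 0 for RO over PA in WT and KO. The shares above count genes apart in either direction, and none is given for higher genes alone at a fold of 4. Nothing is therefore read from the theca counts at that fold. With genes under 10 CPM left out, 4 of 7 theca genes were at least 2-fold higher in RO in WT, beside 11.5% of all genes. No paired analysis was possible because each group holds 1 sample. The low counts of Cylc1 and Actrt3 in WT limit every ratio against those libraries.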
